A study of Mus musculus with 19 samples.

Results

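Hif3a and 6 other genes of the hypoxia-inducible factor (HIF) pathway, Hif1a, Epas1, Arnt, Egln1, Egln3 and Vegfa, were followed across 19 RNA-sequencing libraries of mouse locus coeruleus, the brainstem nucleus that supplies the brain with noradrenaline. They are 7 of the 14443 genes with deposited counts, and all 7 had a row there. Hif3a heads the set because its level differed between sleep-deprived and sleeping mice, so its values in that contrast are given as a description with no test. The other 6 were taken for their place in the pathway, with earlier results of these data known.

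HIF is a transcription factor made of an oxygen-labile alpha subunit (HIF1A, EPAS1, also called HIF2A, or HIF3A) and the stable partner ARNT. In the presence of oxygen the prolyl hydroxylases EGLN1, EGLN2 and EGLN3 mark the alpha subunit, the VHL complex binds it, and it is degraded. When oxygen falls, the alpha subunit accumulates, pairs with ARNT and binds hypoxia response elements beside genes such as Vegfa, which encodes the main growth signal for blood vessels. HIF3A lacks part of the activating region of its relatives, and several of its splice forms limit the activity of the other alpha subunits. Oxygen acts on the alpha subunits mainly at the protein level, which RNA sequencing does not measure.

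The study compared control mice (ABC-Ctrl, here WT) with ABC-CnB1KO mice (here CnB1KO), each after normal sleep (S6) or after 6 h of sleep deprivation (SD6). CnB1 is the regulatory subunit of the phosphatase calcineurin, encoded by Ppp3r1. Per the labels, brains were taken 4 weeks after injection of AAV-hSyn-Cre, a virus that expresses Cre recombinase from a neuronal promoter, and the text that says so names both genotypes. The sources used here do not give age, alleles, strain or whether animals were pooled. WT_S6 had 4 libraries and WT_SD6, CnB1KO_S6 and CnB1KO_SD6 had 5 each, labelled as biological replicates. Libraries are named by group and by the number that the count table gives them.

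Library totals ran from 3887298 counts in CnB1KO_S6 library 13, the shallowest, to 7903253, with 5110285 the next lowest. Ppp3r1, which checks the genotype label, was at 136 to 165 CPM (counts relative to the size of the library, scaled with TMM, which evens out differences in composition) in the 9 WT libraries and at 120 to 152 CPM in the 10 CnB1KO libraries. After sleep the genotypes did not overlap, at 155 to 164 CPM in WT and up to 152 CPM, in library 13, in CnB1KO. After deprivation CnB1KO_SD6 libraries 16 (141 CPM) and 20 (137 CPM) lay inside the WT_SD6 range of 136 to 165 CPM, so 3 of the 10 CnB1KO libraries lie within the range of all WT libraries. All 10 noradrenergic markers were detected, and their summed level varied from 675 to 1715 CPM between libraries, while 8 markers of cerebellar granule cells summed to 280 to 1690 CPM. In bulk tissue, fewer cells of a type and less RNA per cell cannot be told apart.

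The promoters of Hif3a, the gene that set deprived and sleeping mice apart, of Vegfa, the best known HIF target, and of P4ha1 and Ddit4, the HIF targets that rose with deprivation in WT, are shown to let them be read beside the values. They are the 250 bases upstream of the start site, on the gene's own strand, from the RefSeq table of GRCm38.p6, which held 6 of the 7 genes. Capitals mark the core of the hypoxia response element, ACGTG or GCGTG, read on either strand (CACGT or CACGC where it lies on the other strand).
Hif3a, chr7:17062428-17062677, minus strand: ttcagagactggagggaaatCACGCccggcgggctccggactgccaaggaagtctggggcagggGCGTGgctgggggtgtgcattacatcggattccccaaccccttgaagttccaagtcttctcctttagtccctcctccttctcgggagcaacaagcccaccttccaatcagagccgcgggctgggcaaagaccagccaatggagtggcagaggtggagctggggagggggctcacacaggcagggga
Vegfa, chr17:46032378-46032627, minus strand: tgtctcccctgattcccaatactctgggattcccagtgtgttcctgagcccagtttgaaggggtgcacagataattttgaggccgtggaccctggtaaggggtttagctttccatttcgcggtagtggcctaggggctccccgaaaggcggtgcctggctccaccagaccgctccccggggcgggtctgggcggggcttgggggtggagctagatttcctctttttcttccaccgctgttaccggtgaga
P4ha1, chr10:59323046-59323295, plus strand: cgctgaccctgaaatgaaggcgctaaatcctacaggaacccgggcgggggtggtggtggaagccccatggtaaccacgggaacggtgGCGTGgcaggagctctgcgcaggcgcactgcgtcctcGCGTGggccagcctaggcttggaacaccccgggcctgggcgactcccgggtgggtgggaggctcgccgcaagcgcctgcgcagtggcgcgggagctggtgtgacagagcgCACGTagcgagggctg
Ddit4, chr10:59951771-59952020, minus strand: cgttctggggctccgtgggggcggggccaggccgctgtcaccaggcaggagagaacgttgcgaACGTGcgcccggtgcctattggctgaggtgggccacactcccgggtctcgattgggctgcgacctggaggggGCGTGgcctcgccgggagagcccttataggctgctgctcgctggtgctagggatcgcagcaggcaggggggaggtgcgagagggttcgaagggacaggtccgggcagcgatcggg
The Hif3a window held 2 cores, at 230 and 186 bases upstream. P4ha1 held 3 and Ddit4 2, while this Vegfa window held 0. A second listed Vegfa start had 2, but its window (chr17:46025164-46025413) lies within the gene. Bases further than 250 upstream were not searched, so a count of 0 holds for the window only. Egln1 had 2 cores, Hif1a 3 of which a pair overlaps in CACGTG, and Arnt and Egln3 had 1 each. Tfrc, which fell with deprivation in WT, had 2 and 3 cores in the windows of its 2 listed starts. Stc2, which was lower in CnB1KO, had 2. Cores thus lay beside genes that rose, that fell and that passed in no deprivation comparison. Of all 32841 promoters in the table, 38.6% hold at least 1 core, so a core in a given window is common. A match is a run of letters and not a bound site.

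Levels were compared between genes in FPKM, which is scaled to transcript length. These tables were deposited separately for each group, so levels set across groups assume that they were made alike. In WT_S6 the order was Epas1 (37.8 ± 1.73 FPKM, SD, n = 4), Vegfa (32.9 ± 1.84 FPKM), Hif1a (31.1 ± 0.564 FPKM), Arnt (23.8 ± 2.55 FPKM), Egln1 (22.9 ± 1.43 FPKM), Egln3 (4.76 ± 0.0675 FPKM) and Hif3a (3.49 ± 1.79 FPKM). Vegfa and Hif1a overlapped in their libraries there, as did Arnt and Egln1, and Egln3 and Hif3a. The upper 5 genes kept their place above the lower 2 in every group. In WT_SD6, Hif3a (6.98 ± 1.495 FPKM, SD, n = 5) had a higher mean than Egln3 (5.25 ± 1.04 FPKM), with overlapping libraries. In CnB1KO_S6, Hif3a (2.01 ± 0.517 FPKM, SD, n = 5) lay below every library of Egln3 (5.98 ± 0.657 FPKM). Arnt2, the neuronal paralogue of Arnt, was at 34.9 to 54.6 FPKM over the 19 libraries, above the 15.3 to 28.8 FPKM of Arnt.

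Hif3a (chromosome 7, 17031507 to 17062427, minus strand, GRCm38) was higher after deprivation in both genotypes. In WT_S6 its 4 libraries were at 16.9, 29.5, 15.9 and 17.6 CPM, and in WT_SD6 its 5 libraries were at 47.3, 34.6, 36.6, 50.2 and 59.1 CPM. Every deprived WT library was above every sleeping WT library, although WT_S6 library 2, at 29.5 CPM, stood well above its own group. In CnB1KO_S6 the libraries were at 15.7, 14.7, 12.8, 12.2 and 17.5 CPM, and in CnB1KO_SD6 at 26.3, 32.7, 40.2, 50.8 and 31.7 CPM. Here too the groups did not overlap, and the deprived libraries spread more widely. The fitted fold was 2.29 in WT and 2.48 in CnB1KO, a log2 change of 1.19 and 1.31. Across all genes, 1.14% passed an adjusted p of 0.05 (edgeR quasi-likelihood test) in the WT comparison and 0.692% in the CnB1KO comparison, and 5.21% and 2.66% had no overlap of the groups. These shares are the background only, since Hif3a was chosen on this contrast.

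The size of the Hif3a difference in WT depended on WT_S6 library 2, without which the log2 change was 1.44. On the FPKM scale that library was at 6.1303 FPKM, inside the 5.16 to 8.93 FPKM of WT_SD6, and the other 3 were at 2.19, 2.62 and 3.03 FPKM, so the WT groups overlapped there. In CnB1KO the FPKM groups did not overlap, at 1.53 to 2.83 FPKM after sleep and 3.77 to 7.56 FPKM after deprivation. Over all 33 alternative settings the log2 change ran from 0.88 to 1.46 in WT and from 1.05 to 1.40 in CnB1KO. These settings refit the same libraries on which Hif3a was chosen, so the range describes its size and cannot test its direction. Markers of oligodendrocytes moved with deprivation in WT, where their mean log2 CPM was 7.24 ± 0.0935 (SD, n = 4) after sleep and 6.95 ± 0.108 (SD, n = 5) after deprivation, against 7.33 ± 0.193 and 7.22 ± 0.139 (SD, n = 5) in CnB1KO. With that score as covariate the Hif3a log2 change was 1.42 in WT and 1.37 in CnB1KO. The microglial score was also lower after deprivation in WT, at 4.49 ± 0.0889 (SD, n = 4) and 4.24 ± 0.177 (SD, n = 5), with 11 of 12 markers lower and 1 passing. The score of oligodendrocyte precursors was at 6.31 ± 0.119 (SD, n = 4) and 6.1105 ± 0.178 (SD, n = 5), with 7 of 7 markers lower and 1 passing. The part of the microglial score in the Hif3a values was not tested. The counting did not use strand, and a transcript on the opposite strand overlaps Hif3a, 4833404L02Rik, at a mean of 0.114 FPKM. Gene-level counts cannot tell the Hif3a isoforms apart.

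**Figure D1:**
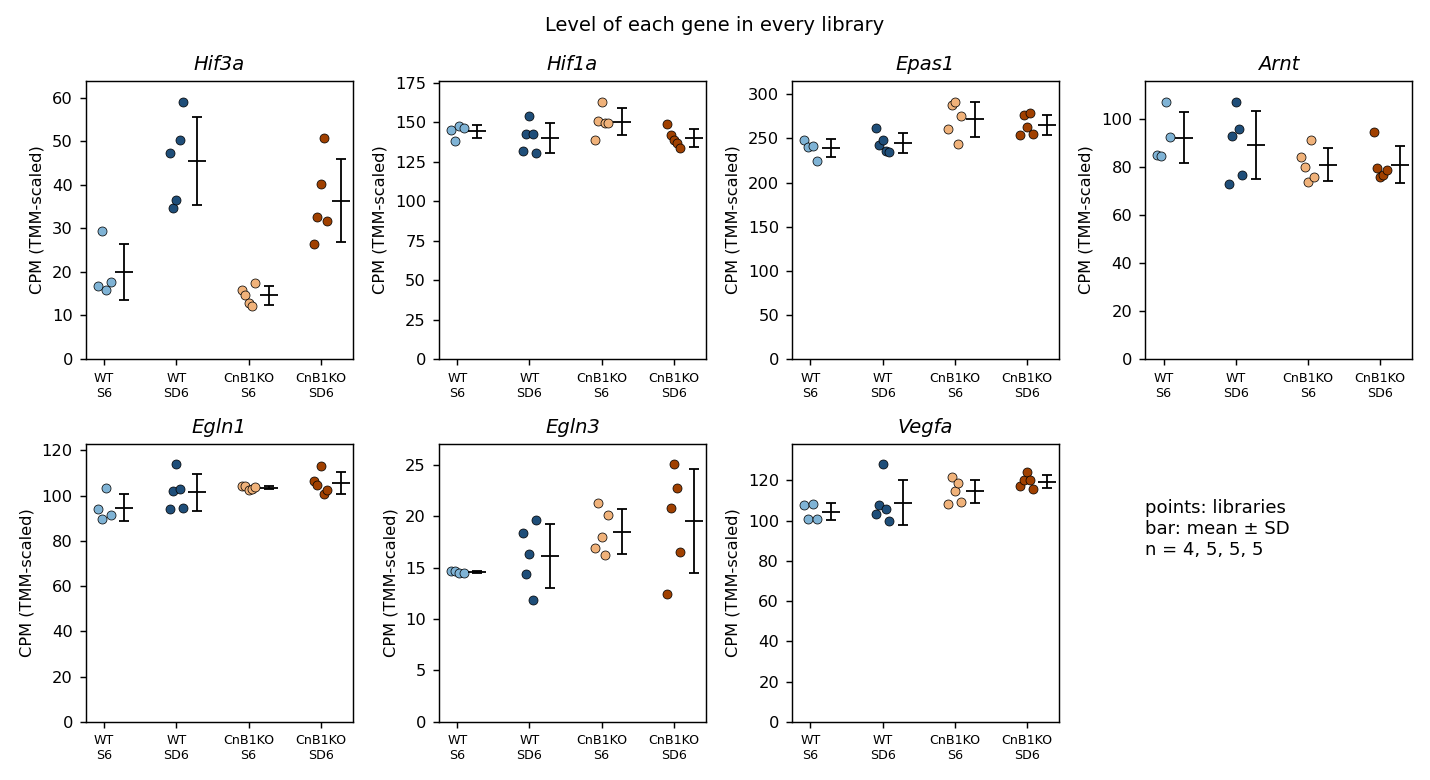
Level of each of the 7 genes in CPM (y axis, TMM-scaled, from 0) in every library (points) of the 4 groups (x axis), with the group mean and SD (bar). Hif3a in the deprived groups sits between 26.3 and 59.1 CPM and in the sleeping groups between 12.2 and 29.5 CPM, while the other 6 genes overlap between sleep states in both genotypes.

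No difference between the genotypes in the response of Hif3a to deprivation was detected. The interaction, the log2 change in CnB1KO minus that in WT, was 0.12 (SE 0.289), with a 95% interval from -0.49 to 0.72, which leaves room for a sizeable difference in either direction (edgeR adjusted p = 1.0). Its sign held in 27 of 32 alternative settings, over a range from -0.17 to 0.28. Without WT_S6 library 2, among those that turned it, the interaction was -0.13. Of all 14443 genes 0 passed for the interaction (0%), 287 had an unadjusted p under 0.05 (1.99%), and DESeq2 called 1. Hif3a was lower in CnB1KO than in WT by means of 14.6 ± 2.16 against 19.95 ± 6.39 CPM after sleep and 36.3 ± 9.49 against 45.5 ± 10.1 CPM after deprivation (SD, n = 5, 4, 5 and 5), and neither difference passed (edgeR adjusted p = 0.518 and 0.398). Averaged over the sleep states the log2 difference was -0.38 (SE 0.145, edgeR adjusted p = 0.123). Both genotype comparisons overlapped in their libraries. Without WT_S6 library 2 the log2 difference was -0.19 after sleep, from -0.44, and -0.26 in the average.

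Of the other alpha subunits, Hif1a (chromosome 12, 73901375 to 73947530), the broadly expressed oxygen-regulated subunit, held a narrow range. Its level was 144 ± 4.15 CPM in WT_S6 (SD, n = 4), 140.3 ± 9.53 CPM in WT_SD6, 150.5 ± 8.55 CPM in CnB1KO_S6 and 140.2 ± 5.89 CPM in CnB1KO_SD6 (SD, n = 5). The deprivation difference was -2.83% in WT (95% interval -9.93% to 4.83%) and -6.65% in CnB1KO (-13.1% to 0.315%), and neither passed (edgeR adjusted p = 0.862 and 0.552). The genotype difference averaged over sleep states was 2.02% (-3.18% to 7.50%, edgeR adjusted p = 0.656). An antisense transcript, Gm15283, overlaps Hif1a at a mean of 0.679 FPKM.

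Epas1 (chromosome 17, 86753700 to 86833410), which encodes HIF2A and is strong in endothelial cells, was the 1 of the 7 genes that passed in a genotype comparison. It was at 249, 241, 242 and 225 CPM in WT_S6 and at 262, 243, 248, 236 and 235 CPM in WT_SD6. In CnB1KO_S6 it was at 260.4, 288, 292, 243 and 275 CPM, and in CnB1KO_SD6 at 254, 277, 263, 279 and 255 CPM. The CnB1KO libraries tended to lie higher, and the ranges overlapped in both sleep states. Averaged over sleep states Epas1 was 11.04% higher in CnB1KO (log2 0.15, SE 0.0376, edgeR adjusted p = 0.0373). In that comparison 3.09% of all genes passed, and 23.1% had an unadjusted p under 0.05 against 6 of the 7 members. After sleep alone (13.6%, edgeR adjusted p = 0.294) and after deprivation alone (8.51%, edgeR adjusted p = 0.296) it did not pass, and 0 of the 7 genes did, against 0.0485% and 0.132% of all genes. The averaged call ended in 19 of 32 alternative settings, 11 of them with a single library left out, with adjusted p from 0.0144 to 0.706 over all settings. The mean log2 CPM of 12 endothelial markers moved with it, at 5.26 ± 0.117 (SD, n = 4) and 5.31 ± 0.153 (SD, n = 5) in WT and 5.56 ± 0.127 and 5.56 ± 0.167 (SD, n = 5) in CnB1KO, and with this score as covariate the log2 difference was 0.080 (edgeR adjusted p = 0.507). The oligodendrocyte score also differed by genotype, and with it the log2 difference was 0.070 (edgeR adjusted p = 0.706). With either score as covariate most calls of this comparison over all genes were lost, as counted in the last section. The loss is thus not particular to Epas1. All 9 measured markers of pericytes and smooth muscle were higher in CnB1KO in the average and 3 passed (median log2 0.22). All 8 markers of cerebellar granule cells were lower and 0 passed (median log2 -0.61), with scores of 6.42 ± 0.777 (SD, n = 4) and 6.402 ± 1.299 (SD, n = 5) in WT and 5.82 ± 0.934 and 5.50 ± 1.29 (SD, n = 5) in CnB1KO. The part of these last 2 cell types in the genotype results was not tested. Of the CnB1KO libraries whose Ppp3r1 lay in the WT range, leaving out library 13 ended the Epas1 call (edgeR adjusted p = 0.0692), and leaving out library 16 or 20 did not. Under deprivation Epas1 differed by 2.41% in WT (-5.41% to 10.9%) and -2.20% in CnB1KO (-9.26% to 5.41%).

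Arnt (chromosome 3, 95434388 to 95497240), the common partner of the alpha subunits, was at 92.2 ± 10.6 CPM in WT_S6 (SD, n = 4), 89.1 ± 14.1 CPM in WT_SD6, 80.9 ± 6.89 CPM in CnB1KO_S6 and 80.9 ± 7.64 CPM in CnB1KO_SD6 (SD, n = 5). Deprivation changed it by -3.59% in WT (-17.0% to 11.98%) and -0.294% in CnB1KO (-13.7% to 15.2%), with adjusted p = 0.921 and 1.0 (edgeR). It was 10.5% lower in CnB1KO averaged over sleep states, which did not pass (edgeR adjusted p = 0.187). A pseudogene, Gm42672, overlaps Arnt on the same strand and was listed at a mean of 6.09 FPKM, so reads of the 2 may be shared.

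Egln1 (chromosome 8, 124908587 to 124949324), the main oxygen sensor that marks HIF1A for degradation, was at 94.7 ± 6.09 CPM in WT_S6 (SD, n = 4), 101 ± 8.03 CPM in WT_SD6, 104 ± 0.721 CPM in CnB1KO_S6 and 106 ± 4.82 CPM in CnB1KO_SD6 (SD, n = 5). The deprivation difference was 7.02% in WT (-1.14% to 15.9%) and 1.92% in CnB1KO (-5.44% to 9.85%), and neither passed (edgeR adjusted p = 0.528 and 1.0). The averaged genotype difference was 6.71% (edgeR adjusted p = 0.146).

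Egln3 (chromosome 12, 54178981 to 54203860) encodes a hydroxylase that is itself a HIF target. It was at 14.7, 14.7, 14.5 and 14.5 CPM in WT_S6, at 18.3, 14.4, 16.3, 11.8 and 19.7 CPM in WT_SD6, at 16.9, 21.3, 18.01, 16.2 and 20.1 CPM in CnB1KO_S6 and at 12.4, 20.8, 25.0, 22.7 and 16.5 CPM in CnB1KO_SD6. The sleeping groups did not overlap, the deprived groups did, and WT_S6 was far tighter than the rest. Its log2 difference between genotypes after sleep was 0.34 (SE 0.170, edgeR adjusted p = 0.508), and averaged over sleep states 0.31 (SE 0.116, edgeR adjusted p = 0.122), which passed without CnB1KO_SD6 library 16 (edgeR adjusted p = 0.0304). With the endothelial score as covariate the averaged difference was -0.053. Under deprivation Egln3 differed by 11.1% in WT (-13.2% to 42.1%) and 5.74% in CnB1KO (-15.9% to 32.9%), the widest intervals of the 6 genes. With intervals this wide, changes of moderate size could go undetected. Egln3 had 65 to 173 counts a library, and the part of depth in this width was not tested.

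Vegfa (chromosome 17, 46016993 to 46032369) did not follow Hif3a. It was at 108, 101, 108 and 101 CPM in WT_S6, at 103, 108, 128, 106 and 99.7 CPM in WT_SD6, at 109, 122, 115, 119 and 109 CPM in CnB1KO_S6 and at 117, 120.2, 124, 120.1 and 116 CPM in CnB1KO_SD6. WT_SD6 library 8, at 128 CPM, was above every other library. The deprivation difference was 4.24% in WT (-4.44% to 13.7%, edgeR adjusted p = 0.808) and 4.23% in CnB1KO (-3.97% to 13.1%, edgeR adjusted p = 0.895). The CnB1KO libraries lay 9.73% higher in both sleep states, with adjusted p = 0.463 after sleep, 0.280 after deprivation and 0.0717 averaged (edgeR). The sleeping genotypes did not overlap but nearly touched, at up to 108.5 CPM in WT and from 108.5 CPM in CnB1KO. The averaged difference passed without WT_SD6 library 8 (edgeR adjusted p = 0.0107) and on log2(FPKM + 0.1) (limma adjusted p = 0.0480), and was 0.027 on the log2 scale with the endothelial score as covariate.

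Set side by side, the 6 genes other than Hif3a differed under deprivation by -3.59% to 11.1% in WT and by -6.65% to 5.74% in CnB1KO. None of the 6 passed in either comparison or in their average, where 4.69% of all genes passed (lowest edgeR adjusted p of the 6, 0.528, 0.552 and 0.336). None of the 6 had an unadjusted p under 0.05 there, against 11.6%, 9.69% and 17.2% of all genes. After sleep, 2 of the 7 genes, Egln3 and Vegfa, had genotype groups with no shared range. Of all genes 4.32% had this. After deprivation 0 of the 7 had it, and 2.05% of all genes. The deprivation and genotype comparisons share libraries and are not independent of each other.

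**Figure D2:**
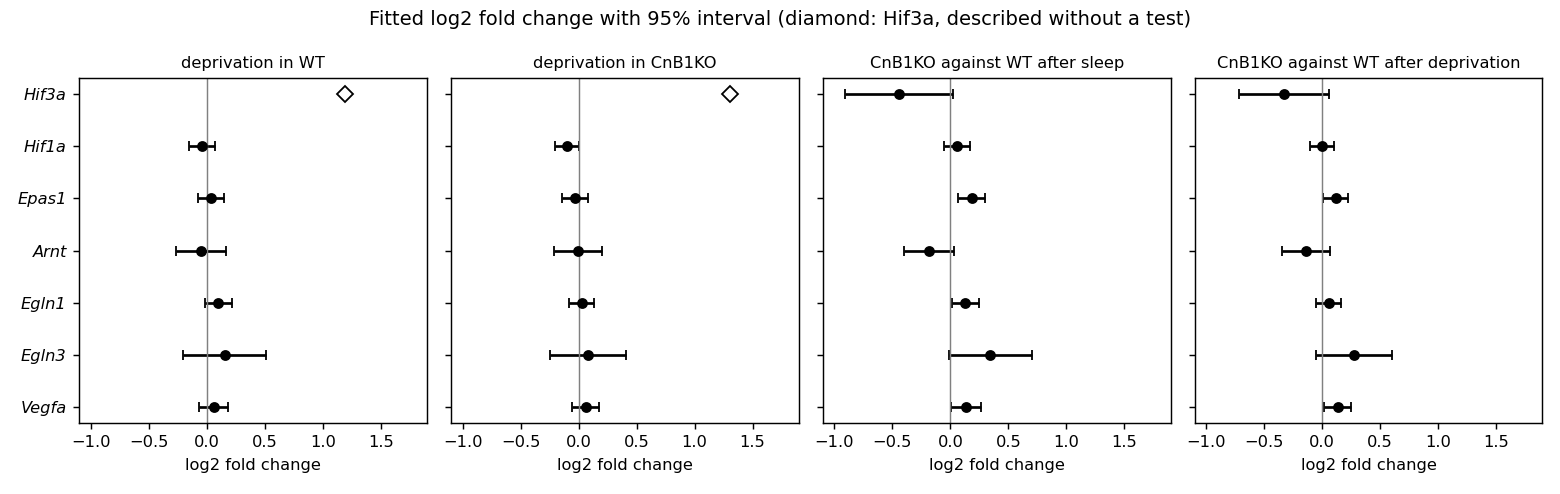
Fitted log2 fold change (x axis) of the 7 genes (y axis) in 4 comparisons, with 95% intervals from the edgeR fit (bars), and Hif3a under deprivation as an open diamond with no interval. Hif3a lies at 1.19 and 1.31 under deprivation, while the intervals of the other 6 genes include 0 in both deprivation panels.

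The rest of the pathway was read from 7 lists, with 83 measured genes beside the 7 members. The lists were chosen with earlier results of these data known. The shares of the 83 that passed, here and between the genotypes below, are therefore a description. Under deprivation in WT 2 of the 83 rose and 1 fell, or 3.61% against 1.14% of all genes. In CnB1KO 1 rose (1.205% against 0.692%), and averaged over genotypes 5 rose and 1 fell (7.23% against 4.69%). The median log2 change of the 83 was 0.022, 0.0092 and 0.0095 in these comparisons, and that of all genes 0.0010, -0.0055 and -0.0030.

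P4ha1, which encodes the catalytic subunit of the collagen prolyl hydroxylase, was the pathway gene that rose in both genotypes. It was at 60.5, 52.8, 53.4 and 51.1 CPM in WT_S6 and at 73.3, 77.3, 70.3, 68.9 and 75.1 CPM in WT_SD6. In CnB1KO_S6 it was at 67.8, 60.9, 62.0, 67.9 and 61.9 CPM, and in CnB1KO_SD6 at 83.2, 88.0, 87.1, 81.3 and 79.4 CPM. Neither pair of sleep states overlapped. It rose 1.34-fold in WT (edgeR adjusted p = 8.2e-04) and 1.31-fold in CnB1KO (edgeR adjusted p = 0.0010), and both calls held in all 33 alternative settings. P4ha2, its paralogue, rose 1.26-fold in the average (edgeR adjusted p = 0.0323), a call that ended in 12 of 32 settings.

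Ddit4, a HIF and stress target that restrains the growth kinase mTORC1, was at 34.8, 32.3, 36.8 and 31.9 CPM in WT_S6 and at 45.8, 39.6, 46.3, 56.6 and 52.6 CPM in WT_SD6, without overlap. In CnB1KO_S6 it was at 35.0, 40.7, 34.7, 35.4 and 40.1 CPM and in CnB1KO_SD6 at 39.9, 47.1, 52.3, 54.0 and 49.98 CPM, where library 16 lay within the sleeping range. It rose 1.42-fold in WT (edgeR adjusted p = 0.0146) and was at 1.31-fold in CnB1KO (edgeR adjusted p = 0.0672), and rose 1.36-fold in the average (edgeR adjusted p = 6.5e-04). The WT call ended in 5 of 33 settings, among them without WT_S6 library 2 (edgeR adjusted p = 0.0649) and without WT_S6 library 4 (edgeR adjusted p = 0.0625). The averaged call held in all 32.

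Tfrc, the transferrin receptor that brings iron into cells, fell in WT, from 197 ± 4.78 CPM (SD, n = 4) to 156 ± 10.9 CPM (SD, n = 5), by 0.34 on the log2 scale (edgeR adjusted p = 0.0130), with no overlap. In CnB1KO it was at 193 ± 15.1 and 172 ± 13.4 CPM (SD, n = 5, edgeR adjusted p = 0.352). The oligodendrocyte score given above moved with Tfrc, and with it as covariate the WT log2 change was -0.17 (edgeR adjusted p = 0.212).

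**Figure D3:**
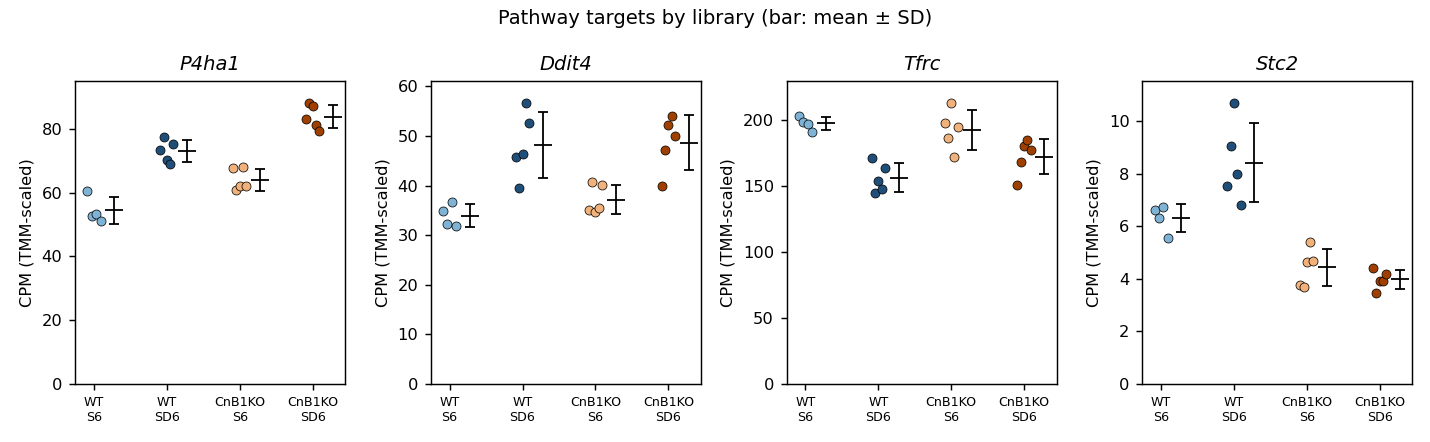
CPM (y axis, from 0) of P4ha1, Ddit4, Tfrc and Stc2 in every library (points) of the 4 groups (x axis), with the group mean and SD (bar). P4ha1 in the deprived groups lies above the sleeping group of its own genotype in every library, at 68.9 to 77.3 CPM in WT and 79.4 to 88.0 CPM in CnB1KO.

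Among the genes that sense oxygen or turn HIF over, 1 of 14 rose in the averaged deprivation comparison, Egln2, the third hydroxylase, 1.11-fold (edgeR adjusted p = 0.00343). It did not pass in WT (1.12-fold, edgeR adjusted p = 0.0608) or CnB1KO (1.10-fold, edgeR adjusted p = 0.137), and on FPKM the averaged call was lost (limma adjusted p = 0.0587). Hif1an, the asparaginyl hydroxylase that blocks the activating region of HIF alpha, was at 1.10-fold (edgeR adjusted p = 0.0604) and Vhl at 1.03-fold (edgeR adjusted p = 0.653). Of 21 glycolytic targets, among the classic HIF-regulated genes, 0 passed in either genotype, against 1.14% and 0.692% of all genes. At an unadjusted p under 0.05 there were 1 and 2, against 11.6% and 9.69% of all genes. In the average, where 4.69% of all genes passed, 1 rose. This was Slc2a1, the glucose transporter of astrocytes and the blood-brain barrier, at 1.18-fold (edgeR adjusted p = 0.0212), a call that ended without WT_S6 library 4 (edgeR adjusted p = 0.0534) and with the astrocyte score as covariate (edgeR adjusted p = 0.0642). The 2 genes of the list with the highest mean CPM, Pfkp and Gpi1, enzymes of the early steps of glycolysis, were at 0.989-fold and 0.995-fold in the average (edgeR adjusted p = 0.917 and 0.985), and the median log2 change of the 21 was -0.0071.

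In the averaged deprivation comparison 4.69% of all genes passed. Of the other lists, 0 of 7 coactivators, 0 of 9 VEGF ligands and receptors and 0 of 8 vascular targets did. At an unadjusted p under 0.05 there were 0, 1 and 2, against 17.2% of all genes. Edn1, the vessel-constricting peptide endothelin, was at 1.44-fold (edgeR adjusted p = 0.0730). Angpt2, Epo, Nos2, Car9, Lox and Vegfd had FPKM but no counts and so entered no test. Epo was listed at 0 to 0.183 FPKM and Car9 at 0 to 3.15 FPKM.

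Between the genotypes, 6 of the 83 genes passed when averaged over sleep states, 5 higher in CnB1KO and 1 lower, or 7.23% against 3.09% of all genes. After sleep 0 passed, against 0.0485%, and after deprivation 1, against 0.132%. Their median log2 difference in the average was 0.074, and that of all genes 0.0074. Of 9 VEGF ligands and receptors 8 were higher and 3 passed. These 3 were Kdr (1.41-fold, edgeR adjusted p = 0.0296), Flt1 (1.28-fold, edgeR adjusted p = 0.00873) and Vegfb (1.13-fold, edgeR adjusted p = 0.0357), the first 2 being VEGF receptors of endothelial cells. Kdr and Flt1 are also among the 12 endothelial markers, of which 7 rose and all 12 were higher, and with the endothelial score as covariate the log2 difference was -0.00011 for Kdr and 0.089 for Flt1. Of 8 vascular targets all were higher and 0 passed, with 5 at an unadjusted p under 0.05, against 23.1% of all genes. Tek, among these 8, is also an endothelial marker. Ndrg1, a stress-responsive gene, was 1.21-fold higher (edgeR adjusted p = 0.0252), and P4ha1 1.16-fold (edgeR adjusted p = 0.00815). Calls ended in 13 of 32 settings for Kdr beside the change of sign, 16 for Vegfb, 12 for Ndrg1, 4 for Flt1 and 3 for P4ha1.

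Stc2, which encodes the secreted glycoprotein stanniocalcin, went the other way. It was at 6.62, 6.33, 6.73 and 5.55 CPM in WT_S6 and at 7.53, 9.04, 10.7, 8.002 and 6.796 CPM in WT_SD6. In CnB1KO_S6 it was at 3.76, 3.69, 4.64, 5.39 and 4.68 CPM and in CnB1KO_SD6 at 4.41, 3.44, 3.91, 3.91 and 4.18 CPM. Every CnB1KO library was below every WT library in CPM. In FPKM the sleeping groups overlapped, with CnB1KO_S6 library 14 at 1.26 FPKM and WT_S6 library 4 at 1.22 FPKM. The level was low, at 0.744 to 2.34 FPKM over the 19 libraries. It was 2.12-fold lower in CnB1KO after deprivation (edgeR adjusted p = 0.0011) and 1.73-fold lower in the average (edgeR adjusted p = 7.2e-04). After sleep alone it was 1.42-fold lower (edgeR adjusted p = 0.294). The call after deprivation ended in 2 of 33 settings, with the compared libraries only (edgeR adjusted p = 0.0527) and with the oligodendrocyte score as covariate (edgeR adjusted p = 0.0604). The averaged call ended in 1 of 32, with the endothelial score as covariate (edgeR adjusted p = 0.0684).

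**Figure D4:**
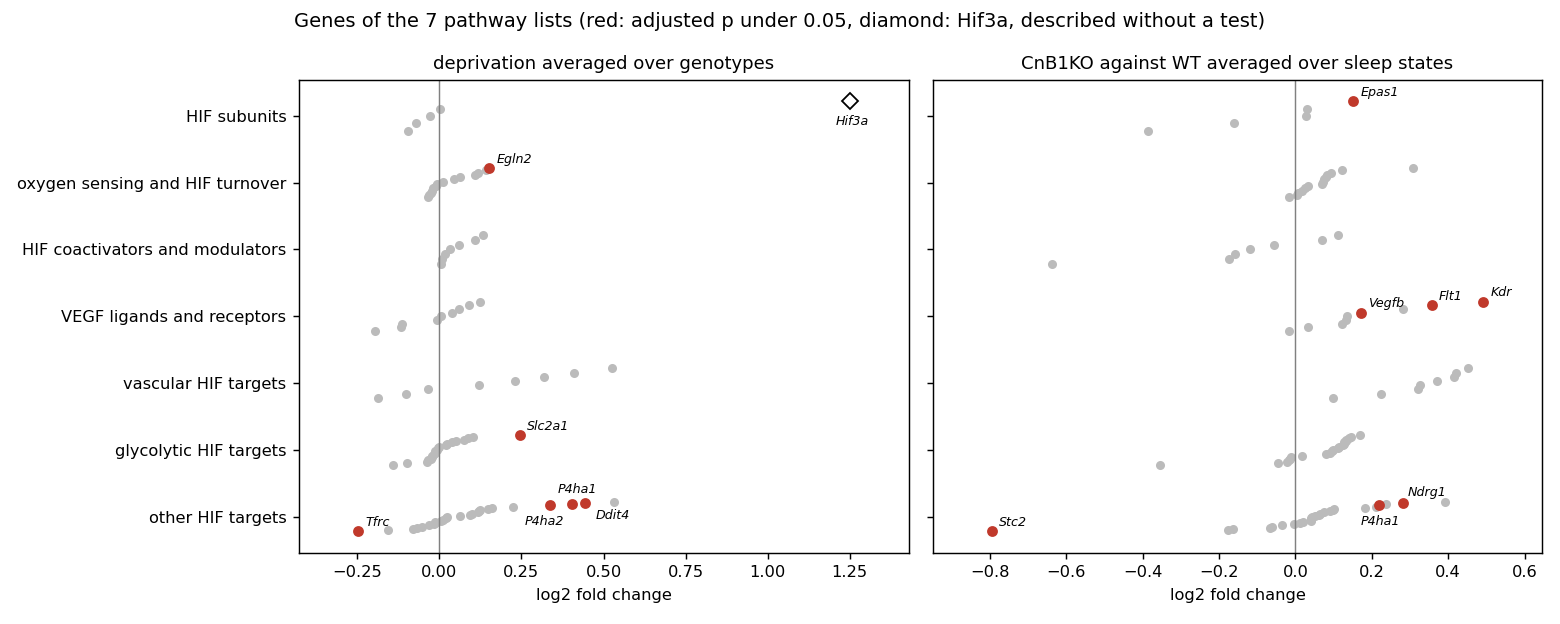
Fitted log2 fold change (x axis) of every measured gene of the 7 lists (y axis), for deprivation averaged over genotypes (left) and CnB1KO against WT averaged over sleep states (right). Red points have an edgeR adjusted p under 0.05, grey points do not, and Hif3a at left (1.25) is an open diamond given without a test.

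The genes whose log2 CPM followed Hif3a most closely over the 19 libraries, of 13282 compared, were Mertk (Pearson r = 0.94), Gpt2 (0.92), Sult1a1 (0.91), Sgk1 (0.91), Plin4 (0.90), Dmpk (0.90), Cdkn1a (0.90) and Klf15 (0.90). These r describe libraries that share the sleep groups and a common scaling. Mertk encodes a phagocytic receptor of astrocytes and microglia, Plin4 a lipid droplet protein, Cdkn1a a cell cycle inhibitor and Sgk1 a serum- and glucocorticoid-regulated kinase. Mertk was at 36.8 ± 3.23 CPM in WT_S6 (SD, n = 4), 56.2 ± 5.38 in WT_SD6, 32.3 ± 3.72 in CnB1KO_S6 and 50.6 ± 5.28 in CnB1KO_SD6 (SD, n = 5), a narrower difference than that of Hif3a. Plin4 had the largest fold of the 8, 10.5 in WT and 11.4 in CnB1KO. Since the 8 were chosen for following Hif3a, their differences are a description. In WT_S6 library 2, where Hif3a stood apart, 4 of the 8 also had their highest WT_S6 value: Plin4 (10.03 CPM, the others at most 6.46), Sult1a1 (10.03 CPM, at most 8.20), Dmpk (37.0 CPM, at most 34.2) and Klf15 (37.96 CPM, at most 36.6). Mertk, Gpt2, Sgk1 and Cdkn1a lay within their group there. Library 2 was among the libraries over which the 8 were chosen, so a shared high there is partly built in.

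**Figure D5:**
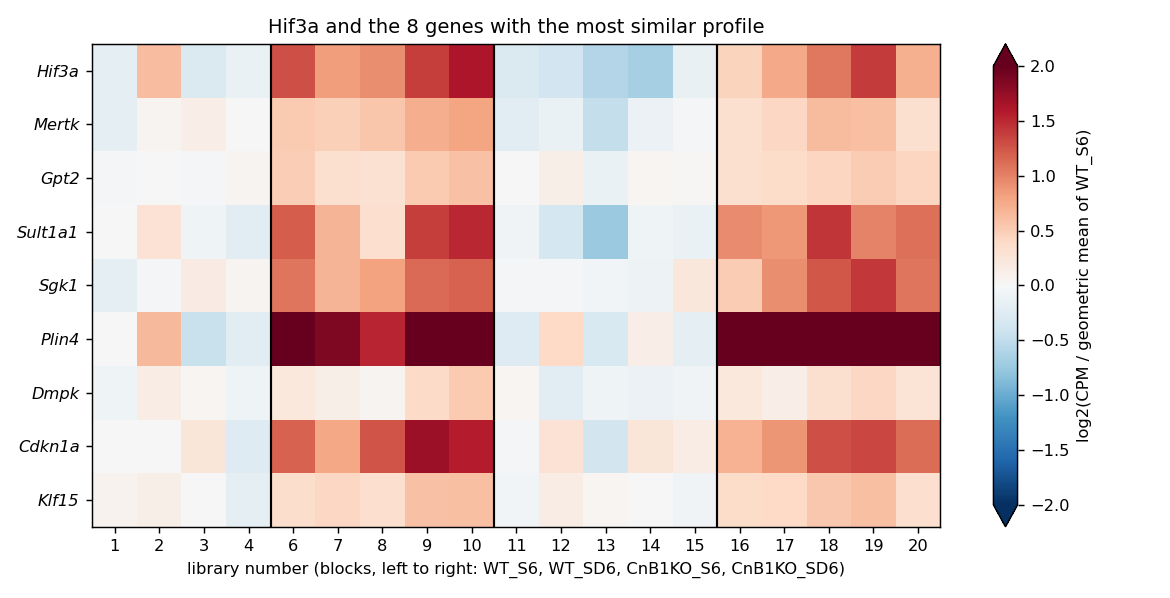
Log2 ratio of CPM to the geometric mean of WT_S6 (colour, limited to -2 to 2) for Hif3a and the 8 genes of highest correlation with it (y axis) in the 19 libraries (x axis, 4 blocks by group). The deprived blocks are redder than the sleeping blocks in every row, least so for Dmpk, and Plin4 exceeds the colour scale in most deprived libraries.

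After subtracting each group's mean, which removes the sleep and genotype differences, the closest genes were Arrdc2 (r = 0.89), Pstk (0.83), E2f1 (0.82), Nek7 (0.82), Wdr75 (0.81), Map3k6 (0.81), Nploc4 (0.81) and Garin5a (0.80). None of the first 8 is among these, but all 8 still followed Hif3a after the subtraction, from r = 0.53 for Cdkn1a to 0.76 for Dmpk. Arrdc2 and Map3k6 also followed Hif3a without the subtraction (r = 0.86 and 0.89), and Pstk did not (-0.16). Arrdc2, an arrestin-domain gene, was at 16.7, 24.2, 18.3 and 17.3 CPM in WT_S6, so library 2 was the highest for it as for Hif3a. Arrdc2 was chosen over libraries that include library 2, so this too is partly built in. Vegfa had other neighbours, Ccdc85c (r = 0.86), Cdc42ep1 (0.86), Tspo (0.84), Ctdsp1 (0.84) and Ankrd40 (0.84), and none of these is among the genes nearest to Hif3a.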

How the data were processed

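RNA sequencing of poly(A) RNA, prepared with a kit that does not mark strand, gave 19 libraries. The authors deposited whole-number counts per gene symbol. They also deposited FPKM, with a separate table for each of the 4 groups. HTSeq 2.0.4, StringTie 2.2.1, SAMtools 1.6, Picard 2.18.29, FastQC 0.12.1, Trim Galore 0.6.10 and the build GRCm38 are listed, without roles, per the submitters' processing notes. The aligner was not given in the sources used here, and the 19 TPM columns deposited beside the FPKM were not used.

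Counts were TMM-scaled and tested with edgeR 4.0.16 (R 4.3.3), quasi-likelihood F test, 2-sided, all libraries in 1 fit of 4 groups (15 residual degrees of freedom), adjusted by Benjamini-Hochberg over 14443 genes (filterByExpr removed 0). A gene passed at an adjusted p under 0.05. FPKM were tested with limma 3.58.1 on log2(FPKM + 0.1), and DESeq2 1.42.0 was an alternative. Other alternatives were the normalization, filters, voom, compared libraries only, each library left out, depth and marker scores as covariates. Intervals are 95%. The script was tested on simulated data. Positions come from the GENCODE M21 annotation of GRCm38.

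The members and lists were chosen with earlier results of these data known. Named were all 7 members, Ppp3r1, list genes that passed (at most 5 a list), otherwise examples, and the 8 genes most like Hif3a and 5 most like Vegfa in correlation. Edn1, Hif1an, Vhl, Arnt2, Epo and Car9 were named after their values were seen.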

Additional observations from a re-analysis of the deposited data

Results flagged for a closer look

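In 4 cases a single library stood apart by Dixon's criterion, which compares the gap of an extreme library with the range of its group. It was applied to 26 genes in 4 groups, 104 tests, of which 4 met it, and chance alone flags about 1 in 20. In WT_S6, Hif3a of library 2 was at 29.5 CPM and the other 3 at 15.9 to 17.6 CPM. In CnB1KO_SD6, Arnt of library 16 was at 94.3 CPM and the other 4 at 75.7 to 79.4 CPM. In WT_SD6, Vegfa of library 8 was at 128 CPM and the other 4 at 99.7 to 108 CPM. In CnB1KO_S6, Sgk1 of library 15 was at 65.0 CPM and the other 4 at 51.9 to 54.3 CPM. The share of 4 in 104 is below that rate, but 3 of the 4 fell in the 28 tests of the 7 members. The tests share libraries and are not independent, so the share cannot be set firmly against the rate. What set these libraries apart was not tested.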

How the results depend on the processing

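Of 1498 alternative values for 46 member results (Hif3a under deprivation, which has no test, left out), 1458 kept their side of the threshold (those not passing also moved by less than the spread), 19 lost a call, all for Epas1 in the averaged genotype comparison, 4 gained one and 17 moved by more than the spread. The sign differed from that of the reported value in 79 of the 1498, over 22 of the 46 results, and in none of these 79 did the reported or the alternative value pass. Kdr turned from 0.49 to -0.00011 with the endothelial score, which contains it. Counts of passing genes depended on the setting, and the cause was not tested. For deprivation in WT (165) they were 35 with compared libraries only, 57 on either FPKM scale, 256 with the endothelial and 49 with the oligodendrocyte score, 70 without CnB1KO_S6 library 13 and WT_S6 library 2, and 78 to 176 leaving out 1 library, the low values being without WT_S6 1 to 4 or WT_SD6 9. For deprivation in CnB1KO (100) they were 160 with DESeq2, 152 with the endothelial and 157 with the oligodendrocyte precursor score, and 54 to 134 leaving out 1 library (low without CnB1KO_S6 11 or 14, or CnB1KO_SD6 18). For the genotypes after sleep (7) they were 13 with DESeq2, 4 with voom, 3 with compared libraries only, 19 with the library total, 3 with the astrocyte or endothelial, 4 with the oligodendrocyte and 11 with the precursor score, 4 without both libraries, and 3 to 8 leaving out 1. After deprivation (19) they were 95 with DESeq2, 4 with compared libraries only, 8 on either FPKM scale, 32 with the library total, 12 with the astrocyte, 7 with the endothelial, 4 with the oligodendrocyte and 6 with the precursor score, 12 without both libraries, and 7 to 220 leaving out 1, the 220 being without CnB1KO_SD6 16. The interaction (0) had 1 with DESeq2 and 0 to 1 leaving out 1 library (1 without CnB1KO_S6 11). For averaged deprivation (678) they were 382 and 421 on FPKM with 0.1 and 1 added, 367 with the oligodendrocyte score, 432 without both libraries, and 470 to 673 leaving out 1. For the averaged genotypes (447) they were 694 with DESeq2, 124 and 138 on FPKM, 37 with the astrocyte, 6 with the endothelial, 10 with the oligodendrocyte and 24 with the precursor score, 143 without both libraries, and 76 to 1088 leaving out 1 (76 without WT_S6 4, 1088 without CnB1KO_SD6 16). The removal of both libraries and the precursor score were chosen after seeing the data. No paired analysis was possible because the count columns carry library numbers over the whole series and not the replicate numbers of the titles. The compared-libraries fit gives no value for the interaction and the averages. Counts a library went as low as 47 for Hif3a (up to 478) and 65 for Egln3 (up to 173). The part of depth in their spread was not tested.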
